A study of Mus musculus with 2 samples.

Results

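CD8+ T cells kept for 30 h on a low amount of one peptide ligand were compared with cells kept on 100 times more of a related ligand, to find which genes followed the peptide rather than the amount. The cells were those of the cultures given 0.2 pmol of the peptide named M9C and 20 pmol of the peptide named L6F. A barcode was used where its top hashtag (a barcoded antibody that marks the culture of origin) had at least 20 counts and at least 80% of all its hashtag counts, where at least 500 genes were seen, and where mitochondrial genes held at most 10% of its UMIs (unique molecular identifiers, 1 for each captured RNA molecule). By this rule 4066 of the 13439 deposited barcodes were used, 1589 from 0.2 pmol M9C and 2477 from 20 pmol L6F, and 10600 barcodes passed over all 6 cultures.

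The study put wild-type mouse CD8+ T cells, isolated from spleen, on 5 peptide-MHC conditions or left them rested. Per the deposited text, plates coated with streptavidin held biotinylated monomers of H-2Db, a mouse class I MHC molecule, loaded with M9C at 20, 2 or 0.2 pmol or with L6F at 80 or 20 pmol. Cells were hashtagged by culture, sorted for viability with propidium iodide and loaded together into 1 droplet lane. The amounts are those added to the plate, and what stayed bound was not measured in the files used here. The sources used here do not name the T cell receptor of the cells or say whether several mice were pooled. Each condition was 1 culture, so nothing below has a replicate, a p-value or a standard error, and every interval given is a 95% interval for counting error only.

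A T cell reads a peptide through its receptor, and how long the receptor stays bound is thought to set how far the signal runs inside the cell. Downstream of the receptor, the kinase Erk and the calcium-controlled transcription factor NFAT carry the signal to the nucleus, where genes for cytokines, chemokines and surface receptors are switched on. Activated CD8+ T cells also switch off genes of the resting state, such as those that keep naive cells recirculating through lymphoid organs. The series is about how such signals, kept up over a long time, let the cell perceive antigen.

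Both peptides are 9 residues long. Counted from the first residue, and going from the peptide named M9C to the peptide named L6F, they differ by F6L and M9C, the latter a substitution that shares its name with the first peptide. The hashtags that separate the cultures are shown because every assignment of a cell rests on them. They are 15 bases long and differ at 11 positions.
0.2 pmol M9C: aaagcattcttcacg
20 pmol L6F: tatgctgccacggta

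The promoters of 4 genes that the results turn on are shown with the letters of 2 motifs in capitals. Il2 and Ccl3 were higher on low M9C, and Ms4a4b and Ctla2a were higher on L6F. Each run has 250 bases before and 50 after the RefSeq transcription start on GRCm38.p6, on the strand of the gene. They are at chr3:37125905-37126204 on the minus strand for Il2, chr11:83649329-83649628 on the minus strand for Ccl3, chr19:11443308-11443607 on the plus strand for Ms4a4b and chr13:60936576-60936875 on the minus strand for Ctla2a. Capitals mark GGAAA, the core of NFAT sites, and TGANTCA, read on either strand. TGANTCA, with any base at N, is a broad form of the AP-1 site that factors induced by Erk can bind.
Il2: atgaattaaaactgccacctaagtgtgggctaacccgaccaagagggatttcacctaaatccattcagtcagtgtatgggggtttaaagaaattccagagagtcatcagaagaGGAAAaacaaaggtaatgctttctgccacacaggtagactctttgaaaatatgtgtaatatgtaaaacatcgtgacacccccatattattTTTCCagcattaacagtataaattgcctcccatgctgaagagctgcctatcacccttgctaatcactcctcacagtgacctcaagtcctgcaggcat
Ccl3: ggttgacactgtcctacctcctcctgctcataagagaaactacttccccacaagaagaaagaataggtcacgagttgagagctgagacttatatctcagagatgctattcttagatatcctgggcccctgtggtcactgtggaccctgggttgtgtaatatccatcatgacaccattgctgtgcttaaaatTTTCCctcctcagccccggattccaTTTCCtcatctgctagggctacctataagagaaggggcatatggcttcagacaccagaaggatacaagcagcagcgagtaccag
Ms4a4b: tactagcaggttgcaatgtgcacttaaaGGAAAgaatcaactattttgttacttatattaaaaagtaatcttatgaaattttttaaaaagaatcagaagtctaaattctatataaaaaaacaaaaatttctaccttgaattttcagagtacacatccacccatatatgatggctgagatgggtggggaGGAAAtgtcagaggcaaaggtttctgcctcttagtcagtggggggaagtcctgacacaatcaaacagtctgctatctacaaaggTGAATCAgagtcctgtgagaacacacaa
Ctla2a: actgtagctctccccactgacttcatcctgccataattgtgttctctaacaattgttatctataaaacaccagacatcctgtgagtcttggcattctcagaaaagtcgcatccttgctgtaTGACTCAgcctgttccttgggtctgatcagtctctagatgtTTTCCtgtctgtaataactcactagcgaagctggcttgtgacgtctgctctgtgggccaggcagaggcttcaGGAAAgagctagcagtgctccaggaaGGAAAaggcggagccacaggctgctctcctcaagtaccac

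Levels are CPM, the UMIs of a gene scaled to 1 total that is the same for every culture, and they are not scaled by gene length. Total UMIs were 11376897 at 0.2 pmol M9C and 16014100 at 20 pmol L6F, so that a count of 0 allows up to 0.264 and 0.187 CPM. The median cell held 7114 UMIs and 2460 genes at 0.2 pmol M9C against 6354 UMIs and 2291 genes at 20 pmol L6F, with 1.61 and 1.80% mitochondrial UMIs. The other cultures held 755 to 2207 cells, and the median cell held 1056 UMIs when rested and 6050 to 6996 when stimulated. The filters on cells left out 828 of 1583 rested cells but 44 and 38 cells of the 2 cultures compared, so rested values describe the deeper part of that culture.

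Most differences between the 2 cultures were small. Of 6998 genes at 10 CPM or more in either culture, 97.08% lay within 1.5-fold of each other and 88.84% within 1.25-fold, around a median log2 ratio of 0.02 (M9C over L6F). For 2455 of them (35.1%) the counting interval excluded equality. The ratio was above equality for 3782 of the 6998 and below it for 3216. At least 2-fold apart, with an interval that excludes equality, were 39 genes. Of these 13 (0.186% of those measured) were higher at 0.2 pmol M9C and 26 (0.372%) were higher at 20 pmol L6F. At 1.5-fold the counts were 79 (1.13%) and 125 (1.79%). In UMIs per cell instead of CPM, which moves every log2 ratio up by 0.15, the split at 2-fold was 20 to 19. It was 12 to 28 with TMM scaling, 12 to 27 with median-of-ratios scaling and 15 to 30 with cells weighted equally.

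**Figure D1:**
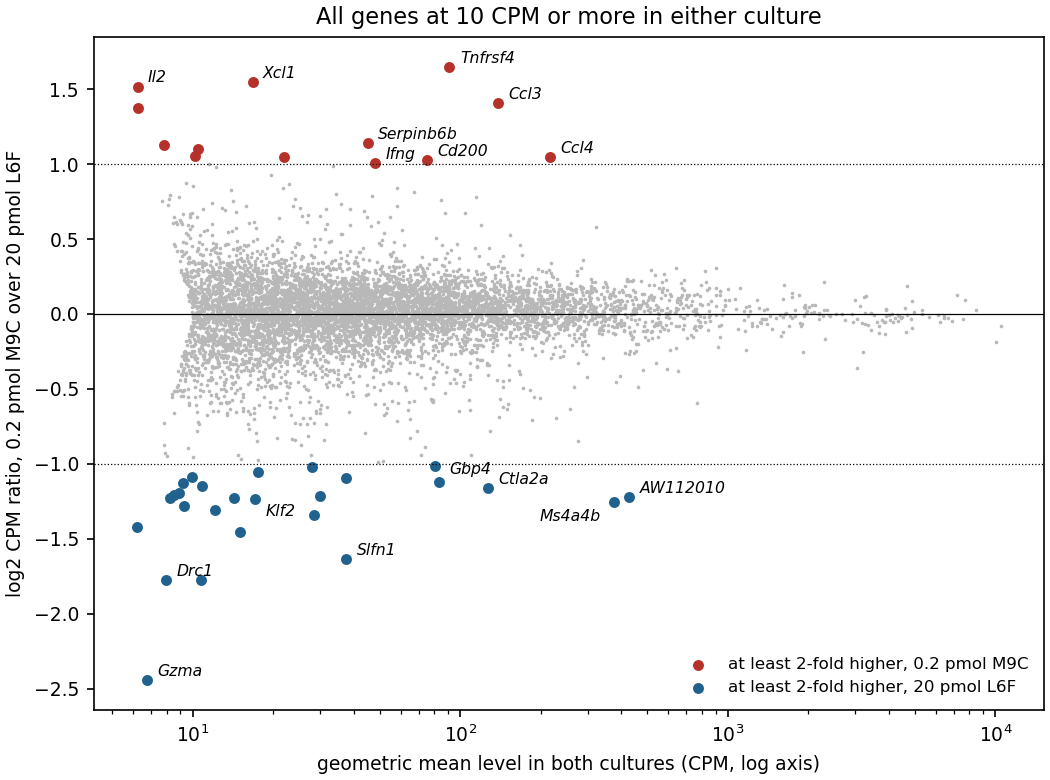
Each point is 1 of 6998 genes, with the geometric mean of its CPM in both cultures (log axis) against the log2 CPM ratio of 0.2 pmol M9C over 20 pmol L6F, and dotted lines at 2-fold. The 13 red genes lie above and the 26 blue genes below those lines, and the other genes lie around 0.

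The 39 genes are the outcome of this comparison, so their ratios in it are a description. The threshold of 2-fold marks no gap in the data. Just under it, between 1.8-fold and 2-fold, were 7 genes higher on M9C and 17 higher on L6F. On the M9C side, Rgs2, a brake on G protein signals, lay just outside with a log2 ratio of 1.00, and Ifng just inside with 1.00. On the L6F side Il4ra lay just inside at -1.02 and Pdcd4, an inhibitor of translation, just outside at -0.99.

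Secreted messengers made up the largest group on the M9C side. Of 27 cytokine and chemokine genes listed, 11 were measured, and 5 of these were at least 2-fold higher at 0.2 pmol M9C, namely Xcl1, Il2, Ccl3, Ccl4 and Ifng. None of the 11 was 2-fold higher on L6F. The 16 listed genes under 10 CPM in both cultures were not counted in either direction. Of the other 6 measured genes, Ltb (lymphotoxin beta) and Il16 were past 1.5-fold on the L6F side, with log2 ratios of -0.85 and -0.71. The median over the 11 was 0.56, against 0.02 for all genes.

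Ccl3, which encodes an inflammatory chemokine, stood at 225 CPM at 0.2 pmol M9C and 84.8 CPM at 20 pmol L6F. In the other cultures it stood at 465 and 321 CPM at 20 and 2 pmol M9C, at 58.03 CPM at 80 pmol L6F and at 16.3 CPM in rested cells. All 3 M9C cultures were above both L6F cultures, and the lowest M9C dose was 2.65-fold above 20 pmol L6F (2.48 to 2.83). Ccl4, its neighbour 13229 bases away on chromosome 11 and a chemokine of the same family, had 565, 416 and 312 CPM at 20, 2 and 0.2 pmol M9C. It had 99.2 and 151 CPM at 80 and 20 pmol L6F and 13.1 CPM when rested, so the order of the 6 cultures was that of Ccl3. The ratio of the 2 cultures was 2.06 (1.96 to 2.17).

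Xcl1, whose product attracts dendritic cells that carry its receptor XCR1, had 100 CPM at 20 pmol, 64.8 at 2 pmol and 28.7 at 0.2 pmol. It was at 9.50 and 9.80 CPM at 80 and 20 pmol L6F and at 4.35 CPM in rested cells. Even at the lowest M9C dose it was 2.92-fold above 20 pmol L6F (2.41 to 3.56). Il2, the T cell growth factor, had 33.1, 22.1 and 10.5 CPM at falling M9C doses, 1.89 and 3.68 CPM at 80 and 20 pmol L6F, and 1.09 CPM (1 UMI) in rested cells. The 0.2 pmol M9C value rests on 120 UMIs and the 20 pmol L6F value on 59, for a 2.86-fold ratio (2.08 to 3.98). Of those 59 UMIs 30.5% were in 5 cells. Ifng, the gene of interferon gamma, had 139, 97.7 and 68.1 CPM at falling M9C doses, 30.8 and 34.0 CPM at 80 and 20 pmol L6F, and 6.53 CPM when rested. Its ratio of 2.01 (1.79 to 2.24) lies at the threshold, and its log2 ratio ran from 0.76 to 1.27 over the processing alternatives, under 9 of 15 of which it was counted. At 0.2 pmol M9C and 20 pmol L6F 27.6 and 27.4% of its UMIs were in 5 cells, with 58 and 45 UMIs in a single cell.

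Surface molecules on the M9C side came from the costimulatory and the inhibitory list. Tnfrsf4, which encodes the costimulatory receptor OX40, had the largest ratio of all genes on that side. It stood at 279, 220 and 161 CPM at 20, 2 and 0.2 pmol M9C, at 39.6 and 51.6 CPM at 80 and 20 pmol L6F and at 7.62 CPM when rested. The lowest M9C dose was therefore 3.13-fold above 20 pmol L6F (2.88 to 3.40), with no overlap between the peptides. Cd200, a ligand that restrains myeloid cells, had 160, 137 and 107 CPM at falling M9C doses, 40.1 and 52.8 CPM at 80 and 20 pmol L6F and 8.71 CPM when rested, a ratio of 2.04 (1.86 to 2.23).

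The rest of the costimulatory receptors differed less. Of 20 measured (of 23 listed), Tnfrsf4 passed 2-fold, 6 passed 1.5-fold on the M9C side and 0 on the L6F side, with a median log2 ratio of 0.20. Slamf1, a self-binding receptor of activated lymphocytes, followed at 0.80, and Cd2, an adhesion receptor, was lowest at -0.56. Il2ra, the high-affinity chain of the IL-2 receptor and here named after its values were seen, was at 204 CPM on 0.2 pmol M9C and 176 CPM on 20 pmol L6F (log2 0.21, 0.13 to 0.29). Of 9 measured inhibitory molecules (of 15 listed) 2 were past 1.5-fold on the M9C side and 1 on the L6F side. Their median log2 ratio was 0.31, with 7 above 0 and 2 below, against 3782 and 3216 of all 6998 measured genes. Pdcd1, the gene of PD-1, was at 47.1 against 23.8 CPM (log2 0.99, 0.79 to 1.18). Ctla4, the inhibitory receptor that competes with CD28, went the other way at 13.0 against 23.4 CPM (log2 -0.85, -1.13 to -0.57). Most inhibitory molecules were thus above 0, but not all went the same way.

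Among the genes linked to the signals under study the ratios were small. Of 24 Erk-linked immediate-early and feedback genes 10 were measured. All 10 had log2 ratios above 0, as had 3782 of all 6998 measured genes, and the median of the 10 was 0.27. Only Ier3, an early-response gene that acts on survival, passed 2-fold, with 15.4 against 7.18 CPM (2.14-fold, 1.68 to 2.73). Its level in rested cells was 18.5 CPM (17 UMIs), above both, which makes it the only M9C-side gene not lowest at rest among these 3 cultures. On so few UMIs, the place of the rested level above that of 0.2 pmol M9C is uncertain. Of 14 measured NFAT and calcium linked genes 2 passed 1.5-fold, Rgs16 (log2 0.86), another brake on G protein signals, and Nr4a3 (0.72), an orphan nuclear receptor induced by the T cell receptor. The median was 0.25. Egr3, an early transcription factor of the same list, was at 15.7 against 19.4 CPM (log2 -0.30, -0.58 to -0.03). Of 14 NF-kB responsive genes 2 passed 1.5-fold, Bcl2a1b (0.76), a survival gene of the BCL2 family, and Nfkb2 (0.65), a subunit of NF-kB, around a median of 0.27. In UMIs per cell these medians are higher by 0.15, as are those of all genes.

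The rest of the 13 genes fall outside the groups above. Serpinb6b, a protease inhibitor counted in the cytotoxic list, had 82.7, 77.1 and 67.0 CPM at falling M9C doses, 25.8 and 30.3 CPM at 80 and 20 pmol L6F and 5.44 CPM when rested. Its ratio was 2.21 (1.97 to 2.48), and the M9C doses lay close together and apart from L6F. Atf3, a stress-induced transcription factor, was flat over the M9C doses at 29.2, 31.0 and 31.6 CPM, and stood at 8.05 and 15.2 CPM at 80 and 20 pmol L6F. Tm4sf5, a membrane protein with 4 spans, Lad1, an anchoring filament protein of epithelia, and Cpd, a carboxypeptidase, are named after their values were seen. At 0.2 pmol M9C and 20 pmol L6F they had 10.0 and 3.87, 11.6 and 5.31, and 14.8 and 7.12 CPM.

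**Figure D2:**
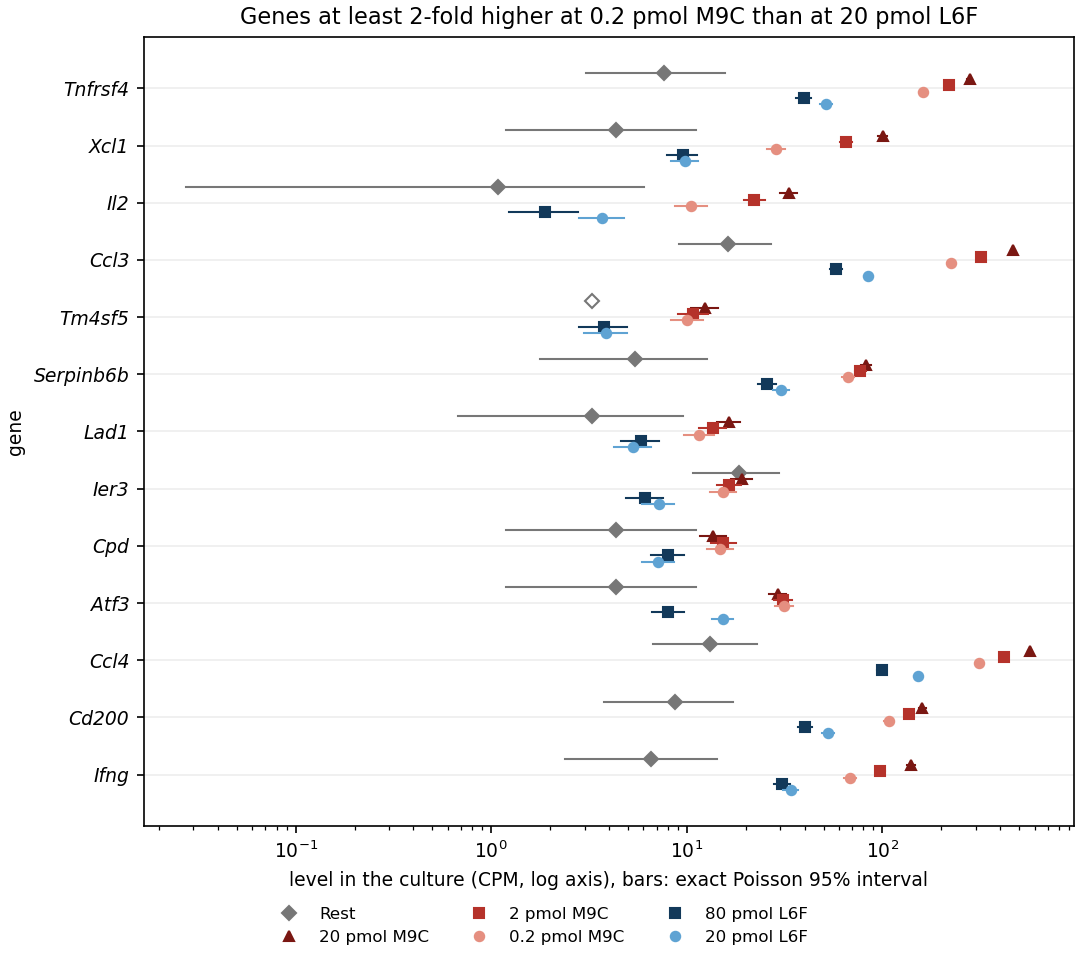
Level (CPM, log axis) in each of the 6 cultures of the 13 genes at least 2-fold higher at 0.2 pmol M9C than at 20 pmol L6F, with exact Poisson 95% intervals for counting error and an open symbol at the limit that a count of 0 allows. The red M9C symbols lie to the right of the blue L6F symbols for all 13 genes, and rested cells lie to the left of both for 12.

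Summed over the 26 genes of the L6F side, the level was 2190 CPM at 20 pmol L6F and 936 CPM at 0.2 pmol M9C. The sum over the 13 genes of the M9C side was 457 and 1063 CPM in the same cultures. In 20 of the 26, rested cells stood above both cultures, in 3 below both and in 3 between them. The same counts over all measured genes are not given here, for either side, so these counts only describe the chosen genes. In the 20 genes the L6F culture was nearer to the rested level than the low M9C culture. That follows from the choice of genes higher on L6F once rested cells stand above both.

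Genes of the resting, recirculating T cell were among them. Klf2, a transcription factor that keeps naive T cells quiescent and recirculating, had 563 CPM in rested cells. It had 14.6, 12.9 and 11.2 CPM at 20, 2 and 0.2 pmol M9C and 37.9 and 26.3 CPM at 80 and 20 pmol L6F. All stimulated cultures were thus far below rest, and within that low range L6F was 2.36-fold above 0.2 pmol M9C (1.93 to 2.90). Rasgrp2, an exchange factor for Rap1, had 101 CPM when rested, 11.7, 11.9 and 19.7 CPM at falling M9C doses and 56.9 and 45.8 CPM at 80 and 20 pmol L6F. Slfn1, a gene of the Schlafen family tied to quiescence, had 262 CPM when rested, 18.5, 16.9 and 21.3 CPM at falling M9C doses and 78.1 and 66.1 CPM at 80 and 20 pmol L6F, a ratio of 3.11 (2.70 to 3.59). Of 20 measured naive and quiescence genes (of 24) 2 were at least 2-fold higher on L6F, 5 at least 1.5-fold, and 0 on M9C, with a median log2 ratio of -0.33. Slfn1 is not in that list. In it 16 genes had log2 ratios below 0 and 4 above, against 3216 and 3782 of all 6998 measured genes. Furthest on the M9C side was Bach2, at 45.4 against 37.3 CPM (log2 0.28, 0.11 to 0.45). Slfn2, also of the Schlafen family, followed at 452 against 388 CPM (log2 0.22, 0.17 to 0.27).

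Genes of memory-like surface and cytoskeletal programs formed the list furthest on the L6F side. Of 21 measured (of 28) 3 were at least 2-fold higher on L6F and 12 at least 1.5-fold, while 1 was 1.5-fold higher on M9C, and the median was -0.63. Ms4a4b, a 4-span membrane protein of T cells that modulates activation, stood at 1961 CPM in rested cells and at 228, 214 and 244 CPM at falling M9C doses. At 80 and 20 pmol L6F it had 621 and 582 CPM, so the M9C doses lay within a narrow band and L6F was 2.38-fold above the lowest (2.28 to 2.49). Its neighbour Ms4a4c, 16307 bases away on chromosome 19, had 9.05 against 24.9 CPM (2.75-fold, 2.21 to 3.44).

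Ctla2a, a cysteine protease inhibitor of the same list, differed between the M9C doses as well. It had 21.8, 29.1 and 84.8 CPM at 20, 2 and 0.2 pmol M9C, 224 and 190 CPM at 80 and 20 pmol L6F and 109 CPM when rested. The lowest M9C dose was thus between the other M9C doses and L6F, and still 2.24-fold below 20 pmol L6F (2.08 to 2.41). Lgals3, the gene of galectin-3, was the member that stood on the M9C side, with 77.6 against 43.3 CPM (log2 0.84, 0.70 to 0.99). It had 20.7 and 17.9 CPM at 20 and 2 pmol M9C and 74.1 CPM at 80 pmol L6F, so it did not go with the peptide.

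Interferon-linked genes were on the L6F side although Ifng itself was on the M9C side. Of 18 measured (of 24) 17 had log2 ratios below 0, as had 3216 of all 6998 measured genes. The median of the 18 was -0.47. Only Gbp4 passed 2-fold, and 7 passed 1.5-fold on L6F and 0 on M9C. Gbp4, an interferon-induced GTPase, had 71.1, 73.8 and 56.6 CPM at falling M9C doses, 126 and 123 CPM at 80 and 20 pmol L6F and 99.03 CPM when rested (2.17-fold, 1.99 to 2.38). Bst2, an interferon-induced surface protein, was the member above 0, at 206 against 197 CPM (log2 0.07, -0.01 to 0.14). Outside the list and named after their values were seen, Gbp8 (3.78 against 10.1 CPM), Gbp9 (6.24 against 13.6 CPM) and Ifi209 (5.98 against 14.5 CPM) went the same way. Gbp8, Gbp9 and Gbp4 overlap on chromosome 5 in the annotation and are near copies, so how reads were shared between them is uncertain, and so is their number as separate results.

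AW112010, a long non-coding RNA that interferon induces, had the highest level of the 39 genes at 20 pmol L6F. It had 289, 317 and 280 CPM at falling M9C doses, 816 and 653 CPM at 80 and 20 pmol L6F and 582 CPM when rested. L6F was 2.33-fold above the lowest M9C dose (2.24 to 2.43), and the M9C cultures again lay in a narrow band.

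Cytotoxic genes did not move together. Of 13 measured (of 17) Serpinb6b was 2-fold higher on M9C and Gzma 2-fold higher on L6F, and the median was -0.06. Gzma, a granule protease, had the largest ratio of the 39 genes, with 2.90 CPM at 0.2 pmol M9C and 15.7 CPM at 20 pmol L6F (5.43-fold, 3.76 to 8.05). It had 2.09 and 3.84 CPM at 20 and 2 pmol M9C, 12.5 CPM at 80 pmol L6F and 2.18 CPM when rested. Its 252 UMIs at 20 pmol L6F came from 120 cells, with 66 in a single cell and 36.5% in 5 cells, so a part of its level rests on few cells. At 0.2 pmol M9C its 33 UMIs came from 24 cells, with 42.4% in 5 cells. With each cell drawn down to 3000 UMIs, it was seen in 0.6% of M9C and 2.52% of L6F cells. Such cells held 1.33 and 2.12 UMIs of it. Gzmb, the main granzyme of activated CD8+ T cells and named after its values were seen, had 238 against 248 CPM (log2 -0.06, -0.13 to 0.01). At 20 and 2 pmol M9C it had 129 and 137 CPM and at 80 pmol L6F 186 CPM, so the lowest dose of each peptide had the higher level. Prf1, the pore-forming protein, had 47.5, 28.7 and 18.5 CPM at falling M9C doses and 8.05 and 10.9 CPM at 80 and 20 pmol L6F (log2 0.76 between the compared cultures, 0.46 to 1.05).

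Receptors and adhesion molecules completed the L6F side. Il4ra, a chain of the IL-4 receptor, had 48.9, 49.9 and 56.6 CPM at falling M9C doses, 98.7 and 114 CPM at 80 and 20 pmol L6F and 153 CPM when rested (2.02-fold, 1.85 to 2.22). Itga4, the integrin alpha 4 chain of lymphocyte homing, had 5.36 against 12.6 CPM (2.34-fold, 1.75 to 3.17) and was at 114 CPM when rested. Of 8 measured integrins and trafficking receptors (of 20) it was the only 1 past 2-fold. In that list 5 genes had log2 ratios below 0 and 3 above, against 3216 and 3782 of all 6998 measured genes. Itgb7, a partner chain of alpha 4, was at 20.3 against 32.9 CPM (log2 -0.70, -0.93 to -0.47). Furthest on the M9C side was Ccr4, a chemokine receptor gene (log2 0.46, 0.15 to 0.77). Itgb1, the integrin beta 1 chain, followed at 112 against 86.7 CPM (log2 0.37, 0.26 to 0.48). Arl4c, a small GTPase, was at 25.6 against 54.6 CPM and at 624 CPM when rested. Glrx, a glutaredoxin, was at 17.9 against 45.5 CPM (2.54-fold, 2.17 to 2.98), and its rested level of 17.4 CPM was that of the M9C cultures. Nsg2 was at 9.32 against 21.9 CPM. The 9 other genes, named after their values were seen, are 1700097N02Rik, Drc1, Arl5c, Sytl1, AB124611, 9930111J21Rik2, H2-DMa, Trp53i11 and Tbxa2r, with log2 ratios from -1.78 to -1.02.

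**Figure D3:**
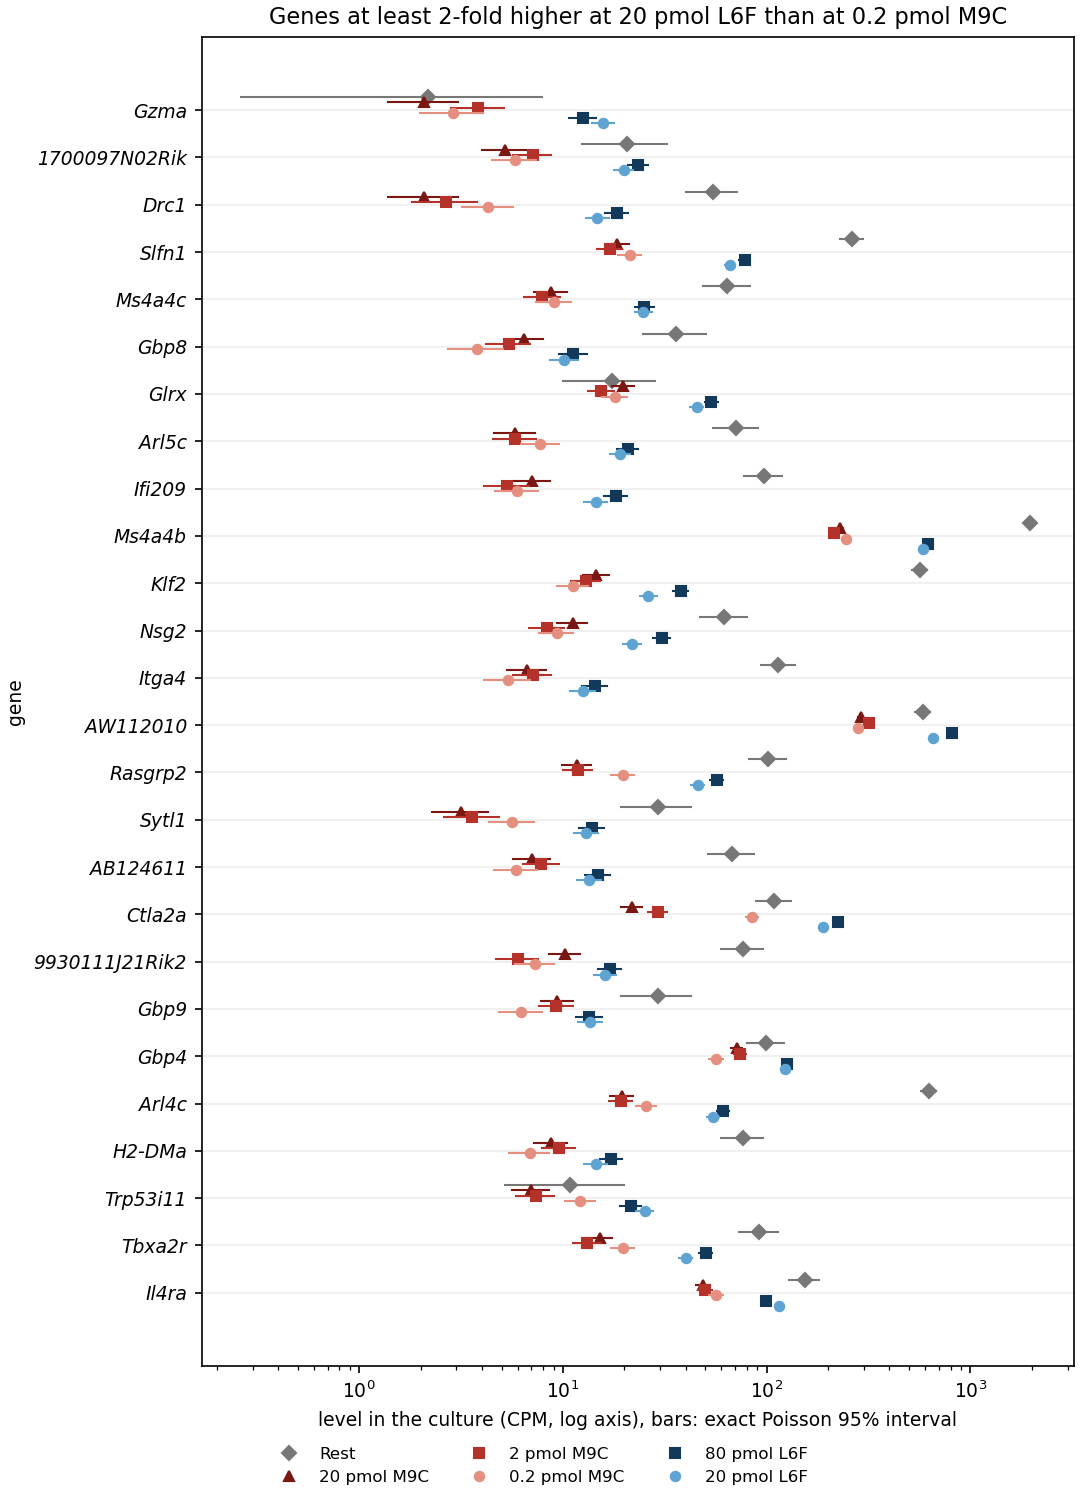
Level (CPM, log axis) in each of the 6 cultures of the 26 genes at least 2-fold higher at 20 pmol L6F than at 0.2 pmol M9C, with exact Poisson 95% intervals for counting error. The blue L6F symbols lie to the right of the red M9C symbols for all 26 genes, and the grey rested symbols lie to the right of both compared cultures for 20.

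Programs of growth and division did not separate the cultures at this fold. None of 23 S phase, 22 G2 and M phase, 21 cholesterol synthesis, 19 ribosome biogenesis, 18 serine, one-carbon and nucleotide synthesis and 10 integrated stress response genes passed 1.5-fold, and their medians lay between -0.09 and 0.15. All 19 ribosome biogenesis genes were above 0, at 0.01 to 0.28, as were 3782 of all 6998 measured genes. Of 13 glycolysis genes Hk2, the inducible hexokinase, passed 1.5-fold with 56.8 against 37.8 CPM (log2 0.59, 0.42 to 0.75), and the median was 0.00. Of 11 apoptosis and p53 genes Bcl2l11, which encodes the death activator BIM, passed it on the L6F side with 22.2 against 36.7 CPM (log2 -0.73, -0.95 to -0.51). In 24 genes of the receptor complex and its proximal signalling, all measured, the median was -0.05. There Cd5, a receptor that tracks signal strength, was at 150 against 87.3 CPM (log2 0.78, 0.68 to 0.88), and Rasgrp1, the exchange factor that links the receptor to Ras and Erk, was at 21.6 against 35.0 CPM (log2 -0.70, -0.92 to -0.48). The 15 effector and memory transcription factors had a median of -0.16, the 11 IL-2 and STAT5 feedback genes also -0.16 and the 9 measured RGS and G protein regulators -0.11. In UMIs per cell, where 0.15 is added, the medians of the receptor complex, S phase, G2 and M phase, glycolysis, cytotoxic and RGS lists lie above 0.

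Some genes were not ordered by peptide over the 5 stimulated cultures. Ccl1, a chemokine named after its values were seen, had 42.5 and 28.5 CPM at 20 and 2 pmol M9C but 0.879 CPM (10 UMIs) at 0.2 pmol. It had 6.89 and 3.31 CPM at 80 and 20 pmol L6F and no UMI in rested cells, so at 0.2 pmol M9C it was below both L6F cultures. Between the 2 compared cultures it was 3.77-fold higher on L6F (1.90 to 8.30). At under 10 CPM in both, it was not counted. Ikzf2, which encodes the transcription factor Helios, showed a different order, with 5.34, 6.51 and 14.5 CPM at falling M9C doses and 7.04 and 9.55 CPM at 80 and 20 pmol L6F. Batf3, also named after its values were seen, had 38.2, 63.8 and 92.7 CPM at falling M9C doses and 55.3 and 78.1 CPM at 80 and 20 pmol L6F. For this transcription factor gene, as for Gzmb, the level was higher at the lower dose of either peptide.

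The same genes were then read in a pair of cultures whose cells took no part in the choice, 2 pmol M9C and 80 pmol L6F. There 49 of 7044 measured genes (0.696%) were at least 2-fold higher on M9C and 70 (0.994%) on L6F. Of the 13 genes from the M9C side 12 were among the former, and Cpd was at 1.92-fold (1.51 to 2.46). Of the 26 genes from the L6F side 21 were among the latter. The other 5 were Il4ra, H2-DMa, AB124611, Gbp4 and Gbp9, at 1.98, 1.80, 1.90, 1.71 and 1.46-fold higher on L6F. No gene was 2-fold apart in the opposite direction, and for all 39 the interval excluded equality in the same direction. The share of all measured genes with an interval excluding equality is not given here for this pair. In the first pair it was 35.1%, in either direction. The median log2 ratio went from 1.13 to 1.77 for the 13 genes and from -1.22 to -1.66 for the 26. Il2 was 11.7-fold apart there (7.83 to 18.3), Xcl1 6.82-fold (5.66 to 8.28) and Ctla2a 7.70-fold on the L6F side (6.89 to 8.62).

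**Figure D4:**
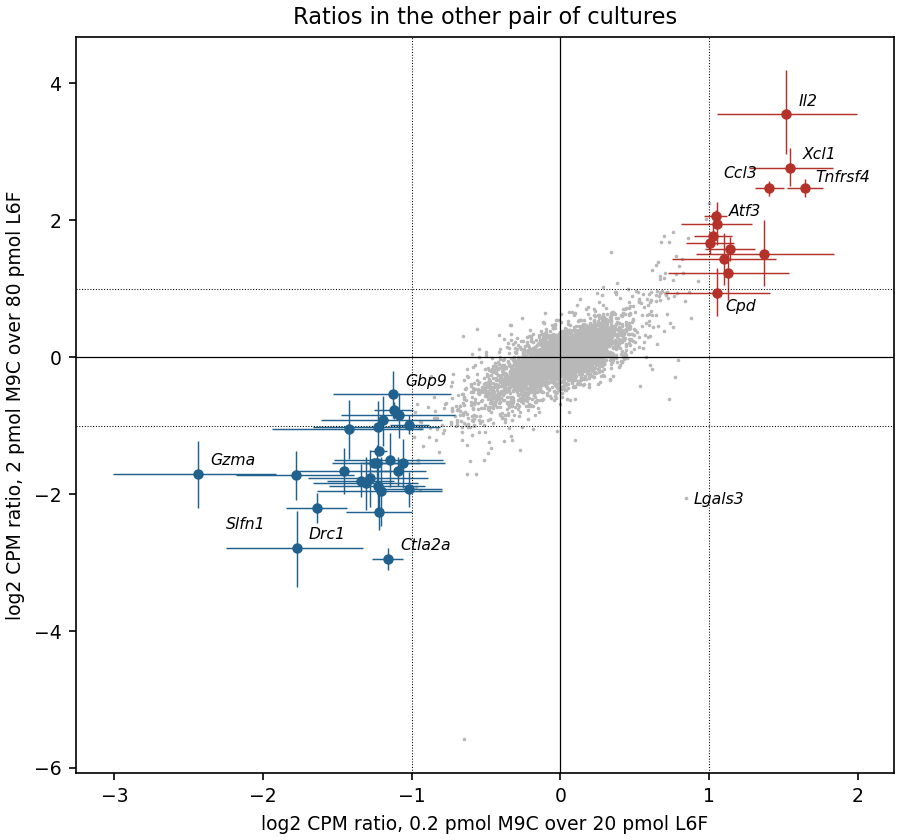
Log2 CPM ratio of 0.2 pmol M9C over 20 pmol L6F (horizontal) against that of 2 pmol M9C over 80 pmol L6F (vertical) for each measured gene, with 95% counting intervals for the 39 genes apart by 2-fold in the first pair. Red and blue genes lie on the same side of 0 in both pairs, and Lgals3 lies on opposite sides.

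All 39 genes were also ordered by peptide over the 5 stimulated cultures, the 3 M9C cultures above both L6F cultures for 13 and below both for 26. Of 7174 genes at 10 CPM or more in a stimulated culture, 2226 (31.0%) had the first order and 1882 (26.2%) the other. These orders are common, and 2 of the 5 cultures also chose the genes. Within a peptide, 20 pmol M9C was further from L6F than 0.2 pmol M9C for 10 of the 13 genes, nearer for 0, and not separable by the interval for 3. Over all 3782 measured genes with a ratio above equality the shares were 6.58% further and 9.33% nearer. For the 26 genes it was further for 9, nearer for 5 and not separable for 12, against 7.28% further and 9.51% nearer over the 3216 genes with a ratio below equality. On the L6F side of the dose range, 80 pmol was further from M9C than 20 pmol for 7 of the 13 and 13 of the 26, and nearer for 0 and 3. Over all measured genes of the same 2 directions it was further for 10.9 and 10.2% and nearer for 3.62 and 4.66%. These counts share the 0.2 pmol M9C or the 20 pmol L6F culture with the choice of genes.

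To give shares of cells with a UMI at 1 depth, cells were thinned to 3000 UMIs, leaving out 89 of the 1589 M9C cells and 219 of the 2477 L6F cells as too shallow. The 13 genes of the M9C side then had means of 0.0267 (Il2) to 0.921 (Ccl4) UMIs per cell at 0.2 pmol M9C. At means below 1, and for most of the 13 far below, UMIs per positive cell stay near 1 for many levels of RNA, so these values cannot tell more cells with the RNA from more RNA in each. Ccl3 was seen in 32.1% of cells (29.8 to 34.6) at 0.2 pmol M9C and in 13.5% (12.1 to 14.9) at 20 pmol L6F, with 2.05 and 1.76 UMIs in each such cell. Tnfrsf4 was seen in 31.5 and 12.3% of cells, with 1.58 and 1.23 UMIs in each, and Ccl4 in 37.1 and 20.2%. Ifng was seen in fewer cells, 7.73 and 4.25%, but with 3.27 and 2.47 UMIs in each, and Il2 in 2.33 and 0.753%. Without thinning the shares for Ccl3 were 45.5 and 20.8% and for Ifng 13.0 and 7.55%.

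On the L6F side, the 2 genes of highest level differed in both measures. Ms4a4b was seen in 43.5% of M9C and 70.5% of L6F cells, with 1.70 and 2.62 UMIs in each. AW112010 was seen in 47.9 and 74.5%, with 1.72 and 2.71 UMIs. Klf2 was seen in 2.73 and 7.75% of cells, Slfn1 in 5.33 and 17.7% and Ctla2a in 16.9 and 33.5%. Rested cells, the only cells in the lane that should lack the induced genes, are too shallow for that depth and were compared at 1000 UMIs, where 464 of 755 could be used. At that depth Ccl3 was seen in 1.51% of rested cells (0.609 to 3.08), 6.20% of 20 pmol L6F cells and 14.3% of 0.2 pmol M9C cells. Tnfrsf4 was seen in 0.647, 5.23 and 13.3%, and Klf2 in 39.7, 2.64 and 1.20%.

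**Figure D5:**
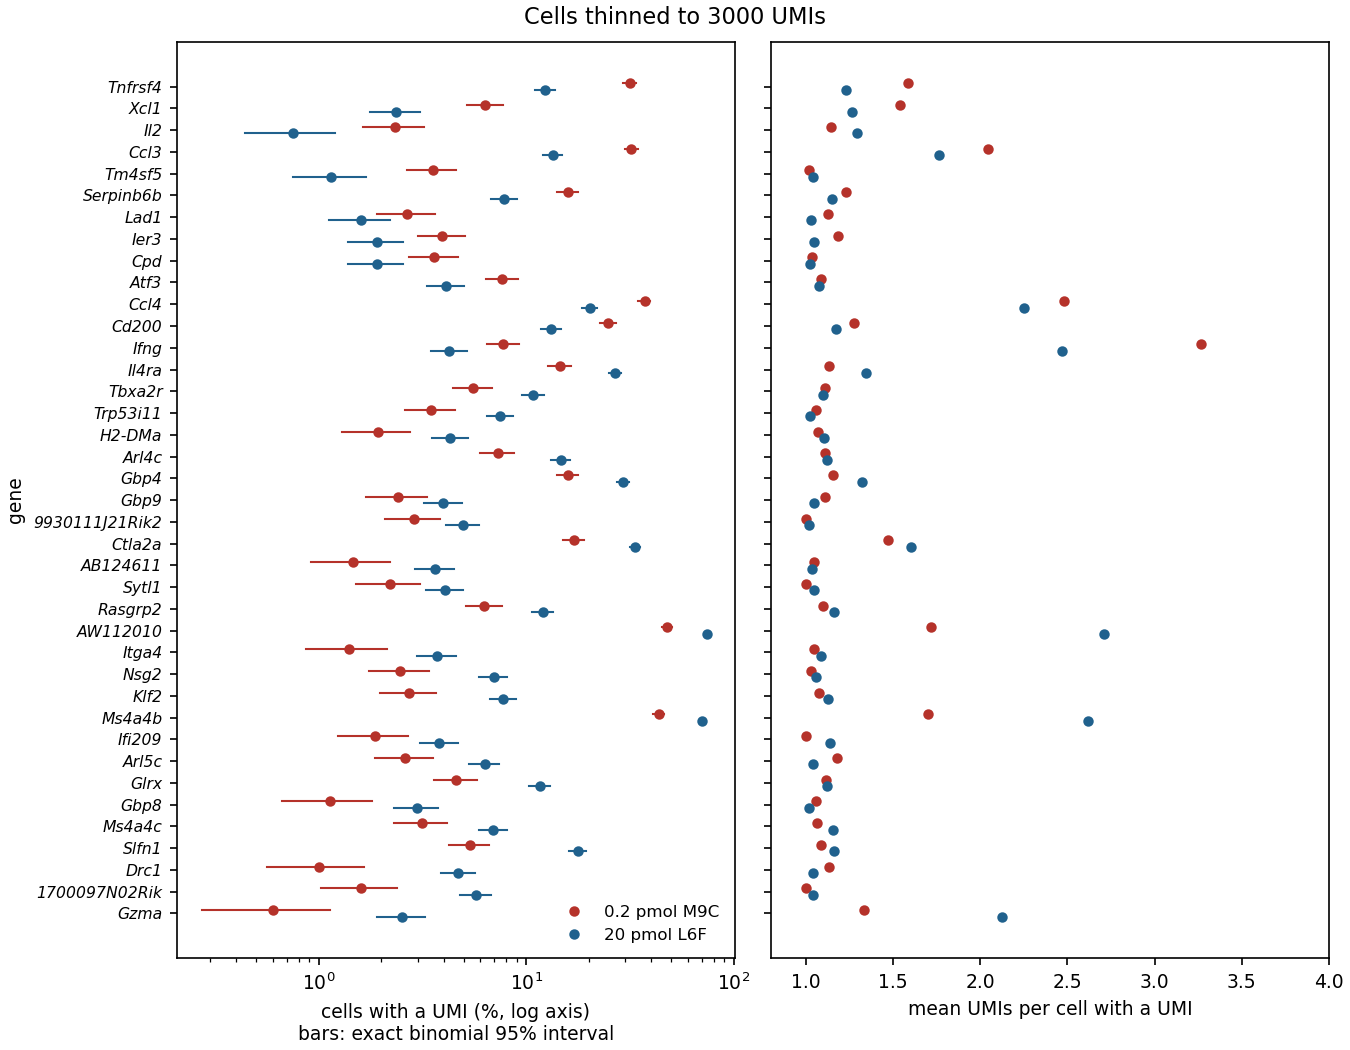
For the 39 genes, in cells thinned to 3000 UMIs, the percent of cells with a UMI (left, log axis, exact binomial 95% intervals) and the mean UMIs in such cells (right) at 0.2 pmol M9C (red) and 20 pmol L6F (blue). Shares differ for the genes of both sides, and most means per positive cell lie near 1, where they cannot show how much RNA a cell holds.

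Summed in each thinned cell, the 13 M9C-side genes gave a mean of 3.20 UMIs at 0.2 pmol M9C and 1.34 at 20 pmol L6F. No UMI of the 13 was seen in 20.6 and 48.7% of cells. The mean was 5.47 and 4.24 at 20 and 2 pmol M9C and 0.940 at 80 pmol L6F. For the 26 L6F-side genes the means were 2.83 at 0.2 pmol M9C and 6.78 at 20 pmol L6F. Both distributions overlap between the cultures, with 21.7% of low M9C cells and 6.47% of L6F cells at 5 or more UMIs of the 13 genes.

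Markers of CD8 T cells were at 1999 CPM in sum at 0.2 pmol M9C and 2031 at 20 pmol L6F, all 6 seen, and at least 3 of their UMIs were in 97.7 and 97.1% of cells. CD4 T cell markers were at 0 and 0.0624 CPM, with Cd4 at 0 in both. Of gamma-delta T cell markers, Trdc, the constant gene of the delta chain, was at 52.6 against 90.4 CPM, and 26.2% (24.0 to 28.4) and 34.8% (32.9 to 36.7) of cells had a UMI of it. The 5 markers of that list found in the matrix summed to 58.8 and 105.8 CPM, and over the 6 cultures to 58.8 to 62.6 CPM on M9C, 105.8 to 113.8 on L6F and 461.4 when rested. Trdc thus went with the peptide, as the 26 genes did. Without cells with a Trdc UMI, 11 and 28 genes were 2-fold apart, 8 and 23 of them from the 13 and the 26. Tm4sf5 fell out of the measured genes, with 9.21 against 4.06 CPM. Ccl4, Cd200, Ifng and Atf3 were just under 2-fold, at log2 0.96, 0.98, 0.97 and 0.92, as were Il4ra, Tbxa2r and Sytl1 at -0.98, -0.91 and -0.95. Gzma was at -2.23, Klf2 at -1.23 and Tnfrsf4 at 1.44.

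B cell markers summed to 210.3 and 253.8 CPM, nearly all of it Ighm, with Ms4a1 at 0 in both cultures. Macrophage markers summed to 11.7 and 17.0 CPM, mostly Lyz2 at 9.49 and 14.9 CPM, which was at 0.774 and 0.501 CPM at 20 and 2 pmol M9C and 24.0 CPM at 80 pmol L6F. Platelet markers summed to 3.43 and 7.99 CPM, NK cell markers to 3.60 and 3.93, erythroid markers to 3.69 and 3.50, basophil markers to 2.64 and 0.375, dendritic cell markers to 0.615 and 0.749 and neutrophil markers to 0.176 and 0. Their part in the differences between the cultures was not tested.

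In the promoters shown above, Il2 and Ccl3 each hold 2 GGAAA matches and no TGANTCA, Ms4a4b holds 2 and 1, and Ctla2a 3 and 1. The TGANTCA match reads TGAATCA in Ms4a4b and TGACTCA in Ctla2a. Of the 13 M9C-side genes 12 had a RefSeq promoter in the table used, and 9 of these (75%) held GGAAA, against 11 of 22 (50%) on the L6F side. Among the 5639 measured genes with a promoter the share was 60.13%, and among all 27025 promoters 61.33%. TGANTCA was in 0 of 12 and in 6 of 22 (27.27%), against 4.06% of measured genes and 7.93% of all. TGACGTCA, the cyclic AMP response element, was in 0 of 12 and 0 of 22, against 3.92 and 1.88%. None of the 3 motifs contains another. These matches describe the letters in these windows and nothing about what is bound there.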

How the data were processed

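One pooled droplet library and its hashtag library were read from 1 deposited matrix of raw UMI counts, which the submitters' processing notes tie to bcl2fastq, Cell Ranger 6.0.1 (also in the file headers) and the mouse build GRCm38 or mm10. The calling of cells and the gene annotation are not stated there. The deposited text ties each hashtag to a culture by number. Of 13439 barcodes 28 had under 20 counts of their top hashtag and 1740 (12.9%) had a top share under 80%, and these were left out as unassigned or mixed. Doublets within a culture were not removed, and no other doublet caller was run.

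UMIs were summed per culture and scaled to CPM with numpy 2.4.6 and pandas 2.3.3 in Python 3.11.15. Ratios have exact Clopper-Pearson 95% intervals, CPM exact Poisson and shares of cells exact binomial ones (scipy 1.17.1). A gene was counted at 10 CPM or more in either culture, 2-fold or more and with an interval excluding equality. Rows of 0 UMIs were set at a floor of 3 counts. There is 1 culture per condition, so no test was run. The ratio script was checked on simulated counts.

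The text names the 15 genes furthest from equality in each direction, ranked by whichever interval bound is closer to 0 and taken from genes at 20 CPM or more, leaving out mitochondrial, ribosomal protein, antigen receptor, unnamed and other cell type marker genes, and up to 2 members of each of 23 lists in each direction. Other genes are said to be named after their values were seen. Results of some single genes are left out. The genes, lists and 11 marker lists were chosen with earlier results of these data known. Positions are from GENCODE vM21, which held 32235 of 32285 gene IDs and all 39 genes counted. Promoters are from RefSeq. Reads shared between near copies make the Gbp, Ms4a4, Serpinb6, Ctla2, Gzm and Bcl2a1 genes uncertain. Alternatives were other cell filters, CPM minima, folds, scalings (edgeR 4.0.16 TMM factors, median-of-ratios factors, UMIs per cell), equal weight per cell, thinning, cells without Trdc and, chosen after seeing the data, singlets of HTODemux (Seurat 5.3.0 in R 4.3.3, quantile 0.99) and cells between 4000 and 10000 UMIs.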

Additional observations from a re-analysis of the deposited data

Results flagged for a closer look

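For 12 of the 39 genes the higher dose of a peptide went with opposite directions for M9C (20 over 0.2 pmol) and L6F (80 over 20 pmol), each with an interval that excludes equality. That is 30.8% of them, and over all 6998 measured genes 166 (2.37%) had such opposite directions. The 39 genes were chosen with 2 of these 4 cultures, so the gap between those shares is a description. With 1 culture per dose the difference between the peptides was not tested, and each contrast shares a culture with the choice of the genes. Among genes of the M9C side, the higher dose was higher for M9C and lower for L6F. The log2 ratios were 1.65 and -0.97 for Il2, 1.05 and -0.55 for Ccl3, 0.86 and -0.61 for Ccl4, and 0.79 and -0.38 for Tnfrsf4. They were 0.57 and -0.40 for Cd200 and 0.30 and -0.23 for Serpinb6b. Among genes of the L6F side, the higher dose was lower for M9C and higher for L6F. The log2 ratios were -1.96 and 0.24 for Ctla2a, -1.04 and 0.32 for Drc1, -0.75 and 0.31 for Rasgrp2, and -0.40 and 0.16 for Arl4c. They were -0.38 and 0.33 for Tbxa2r and -0.10 and 0.0942 for Ms4a4b, the smallest of the set. For these 12 genes the 20 pmol M9C and 80 pmol L6F cultures were thus further apart than the 0.2 pmol M9C and 20 pmol L6F cultures. The 2 pmol M9C culture took no part in this count.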

How the results depend on the processing

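At 50 CPM or more 6 and 7 genes were at least 2-fold higher on M9C and L6F, 11 of them also in the other pair of cultures and 13 ordered by peptide. With no CPM filter the counts were 133, 176, 126 and 236, and at 1.5-fold they were 79, 125, 160 and 194. In UMIs per cell 20 genes were higher on M9C and 19 on L6F. Under the other 11 alternatives the counts stayed within 1.5 times of 13, 26, 33 and 39, at 10 to 17, 25 to 34, 28 to 35 and 34 to 46. Of the 39 genes, 7 were counted under all 15 alternatives: Tnfrsf4, Ccl3, Serpinb6b, Slfn1, Ctla2a, AW112010 and Ms4a4b. The 50 CPM minimum drops genes by level alone and kept 6 of the 13 and 7 of the 26. The 1.5-fold and no CPM filter alternatives could drop none of the 39. Ifng was counted under 9 and Tbxa2r under 10, fewer than the other 37. No gene named in the text changed to the opposite call. Lists have no call, and in UMIs per cell the medians of several lists moved from below 0 to above it, as given above. Genes at 10 to 50 CPM rest on fewer UMIs than genes at higher levels, and 50 CPM leaves 3072 of 6998 genes. In that range, Il2 had 120 and 59 UMIs at 0.2 pmol M9C and 20 pmol L6F, and Pdcd1 had 536 and 381. No paired analysis was possible because each condition was 1 culture and no test was run.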

Other observations

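Within each culture, cells with more UMIs of the 13 M9C-side genes had fewer UMIs of the 26 L6F-side genes, in cells thinned to 3000 UMIs. At 0.2 pmol M9C, cells with 0, 1 to 4 and 5 or more UMIs of the former had means of 4.00, 2.59 and 2.33 UMIs of the latter. At 20 pmol L6F these means were 8.07, 5.75 and 4.22. Cells of the L6F culture with 5 or more UMIs of the 13 genes were 6.47% of it, with a mean of the 26 genes of 4.22 UMIs, beside 4.00 in 0.2 pmol M9C cells with none of the 13. The same order over the 3 classes was found at 20 pmol M9C (4.47, 2.93 and 1.77), 2 pmol M9C (4.14, 2.65 and 1.84) and 80 pmol L6F (8.49, 6.39 and 4.78). Both sums come from the same fixed number of UMIs of a cell, and the genes were chosen from 2 of these cultures, so these values are a description. Few genes also hold much of each sum. At 20 pmol L6F the mean of the 26 genes was 6.78 UMIs, of which AW112010 gave 2.02 and Ms4a4b 1.84. At 0.2 pmol M9C the mean of the 13 genes was 3.20 UMIs, of which Ccl4 gave 0.921, Ccl3 0.657 and Tnfrsf4 0.499.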
